A study of Mus musculus with 2 samples.

Results

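Glypicans and syndecans are the cell-surface families of heparan sulfate proteoglycans, and all 10 mouse genes, Gpc1 to Gpc6 and Sdc1 to Sdc4, were taken by gene name from a table of 55323 genes. The cells sequenced were TgS1, a line of mouse Schwann cells of genotype TTR V30M tg, that is, with a transgene of a mutant human transthyretin. Schwann cells are the glia of peripheral nerve. One culture had been kept long-term in SCM, a medium that the labels do not spell out, and the other long-term in DMEM, a standard basal medium that the series' text calls S-DEMEM. Both cultures carry the transgene, neither is named as the control, and the labels do not say which one stands for the repair phenotype of the series title. Each medium is represented by 1 library, so differences could not be checked against replicates, and neither p-values nor SDs are given.

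A glypican is a core protein held to the outer membrane leaflet by a glycosylphosphatidylinositol (GPI) anchor. A syndecan crosses the membrane and ends in a short cytoplasmic tail. The heparan sulfate chains on both bind growth factors and matrix proteins. In rat Schwann cells, glypican-1 and syndecan-3 are known to bind a collagen of type V, and heparan sulfate is known to lie with transthyretin in amyloid deposits.

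Reads assigned to genes numbered 36666676 in SCM and 29085791 in DMEM, recovered from the deposited FPKM values (fragments per kilobase of gene and per fixed number of reads). Reads not assigned to a gene cannot be recovered in this way. At these depths a count of 0 allowed up to 0.0818 FPKM in SCM and 0.103 FPKM in DMEM for a gene of 1 kb, taking 3 reads as the limit. Of 8 Schwann cell markers, 7 were above 20 FPKM in both libraries. Of 34 markers of 7 other cell types, 4 reached 1 FPKM (Col1a2, Cd68, Slc2a1 and Itgb4). Summed levels per type ran from 0.0277 to 7.26 FPKM in SCM and from 0.0552 to 4.04 FPKM in DMEM, with Lum, Col1a1, Adgre1, Cdh5, Cldn1, Rbfox3 and Tyr at 0 reads in both.

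The 4 syndecan genes have much alike last codons, which encode the tail end that binds the PDZ domains of syntenin and CASK. The final 45 coding bases of each are shown because, over this full length, they sort the genes into pairs. They are written in the direction of the gene, with the last 15 bases, stop codon included, in capitals. They come from GENCODE M21 on GRCm38 and each lies in 1 coding exon, at chr12:8791763-8791807 (plus strand) for Sdc1, chr15:33032496-33032540 (plus) for Sdc2, chr4:130822765-130822809 (plus) for Sdc3 and chr2:164426086-164426130 (minus) for Sdc4.
Sdc1: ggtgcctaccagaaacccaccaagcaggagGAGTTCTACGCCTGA
Sdc2: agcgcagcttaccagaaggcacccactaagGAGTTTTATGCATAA
Sdc3: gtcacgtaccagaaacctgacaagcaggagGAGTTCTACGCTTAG
Sdc4: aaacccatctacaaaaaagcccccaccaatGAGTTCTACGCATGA
Compared base by base from the stop codon, Sdc1 and Sdc3 had 35 of the 45 bases in common and Sdc2 and Sdc4 had 29. The other combinations had 18 to 24 in common. Within the 15 capitals alone the pairs did not hold. There Sdc1 and Sdc4 were the most alike, with 14 bases in common, against 12 for Sdc1 and Sdc3 and 12 for Sdc2 and Sdc4. All 4 genes had the same base at 14 positions, 10 of them in the capitals.

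Among the 10 genes, 8 reached 1 FPKM in 1 or both libraries and were compared. On the scale of log2((FPKM in SCM + 1) / (FPKM in DMEM + 1)), 1 of them, Sdc4, was at least 2-fold higher in SCM, and 1, Sdc3, at least 2-fold lower. Over all 12334 rows compared in the same way, 3.1% were at least 2-fold higher and 2.8% at least 2-fold lower, 5.89% in all. Among the 2438 rows that reached 20 FPKM in 1 or both libraries, 6.64% passed 2-fold in either direction. The median log2 ratio of the 8 genes was -0.35, against -0.03 over all rows compared, and their median absolute log2 ratio was 0.47, against 0.22. In bulk RNA, fewer cells with a transcript and less of it per cell cannot be told apart. Of the 8 genes, 5 lay below 0, as did 54.2% of all rows compared.

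**Figure D1:**
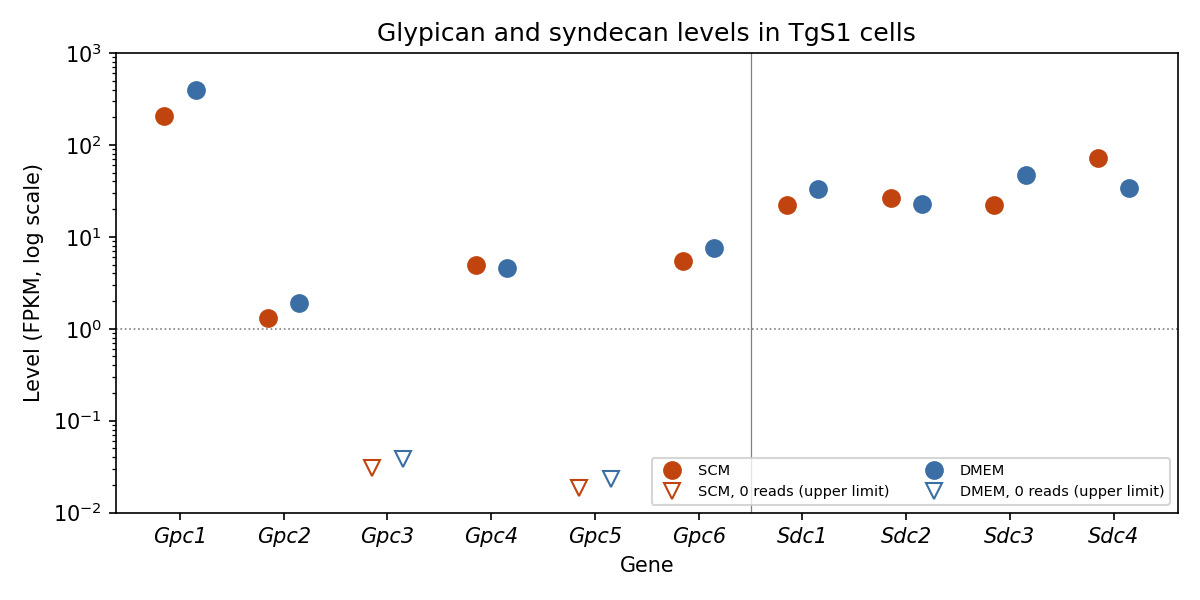
Level of each glypican and syndecan gene in FPKM on a log axis, with 1 point per library (SCM left, DMEM right). Open triangles give the upper limit for genes with 0 reads, and the dotted line marks 1 FPKM. Gpc1 stands above every other member in both libraries, at 208 FPKM in SCM and 395 FPKM in DMEM.

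Gpc1 was by far the most abundant member in both cultures. Glypican-1 is a co-receptor for fibroblast growth factors and other heparin-binding ligands. Its gene (ENSMUSG00000034220; GRCm38 chr1:92831645-92860779, plus strand) had 208 FPKM (39396 reads) in SCM and 395 FPKM (59200 reads) in DMEM. It ranked 107 among all rows by FPKM in SCM and 52 in DMEM. The SCM level was 52.8% of the DMEM level, 1.89-fold lower with a 95% counting interval of 1.87 to 1.92, and the log2 ratio of -0.92 fell short of the 2-fold limit. Intervals here are exact (Clopper-Pearson) intervals of the reads and cover counting error only, and amplified reads are not independent molecules. At a limit of 1.5-fold in place of 2-fold, Gpc1 would also be called lower, alongside Sdc3. The 3′ end of Gpc1 overlaps exons of Ankmy1 on the other strand. Ankmy1 had 15 reads in SCM and 13 in DMEM, and 18.0% of the 50-base words of Gpc1 transcripts also occur, on either strand, in transcripts of Ankmy1. The microRNA gene Mir149 lies in an intron of Gpc1 and had 1 read in SCM and 6 in DMEM, too few for a comparison.

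The other glypicans were low or had no reads. Gpc6 (ENSMUSG00000058571; chr14:116925315-117976544, plus strand) had 5.53 FPKM (1302 reads) in SCM and 7.48 FPKM (1398 reads) in DMEM, 1.35-fold lower in SCM (1.25 to 1.46). Gpc4 (ENSMUSG00000031119; chrX:52053021-52165252, minus strand) had 4.90 FPKM (476 reads) in SCM and 4.60 FPKM (355 reads) in DMEM, and the counting interval of its ratio, 0.925 to 1.22, held 1. Both encode glypicans that astrocytes release to promote the formation of synapses, and in both libraries Gpc6 stood above Gpc4. Gpc2 (ENSMUSG00000029510; chr5:138273655-138280005, minus strand), a gene of developing neurons, had 1.31 FPKM (206 reads) in SCM and 1.90 FPKM (236 reads) in DMEM. The Gpc2 level is uncertain, because 49.7% of its 50-base words also occur in Gm43720, an overlapping gene on the same strand that had 3 reads in SCM and 0 in DMEM. None of these 3 genes passed 2-fold.

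Gpc3 and Gpc5 had 0 reads in both cultures. For Gpc3 (ENSMUSG00000055653; chrX:52272426-52613950, minus strand), which encodes an inhibitor of Hedgehog signalling, this allows up to 0.0304 FPKM in SCM and 0.0383 FPKM in DMEM. For Gpc5 (ENSMUSG00000022112; chr14:115092215-116525179, plus strand) the limits are 0.0184 FPKM in SCM and 0.0232 FPKM in DMEM. Each of these genes is the neighbour of a glypican that was read. Gpc3 lies 107 kb from Gpc4 on chromosome X, Gpc5 lies 400.1 kb from Gpc6 on chromosome 14, and 0 protein-coding genes lie between the genes of either pair. Within each pair both genes are on the same strand.

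Summed over the family, glypicans had 220.0 FPKM in SCM and 409 FPKM in DMEM. Gpc1 made up 94.7% of this sum in SCM and 96.6% in DMEM, so the sum followed Gpc1. Without Gpc1, the sums were 11.7 FPKM in SCM and 14.0 FPKM in DMEM. Gpc1 stood 37.7-fold above Gpc6, the next glypican, in SCM and 52.7-fold above it in DMEM, in FPKM.

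The syndecans were all present, and their summed level differed little between the cultures while their order changed. The 4 genes summed to 143 FPKM in SCM and 137 FPKM in DMEM. Sdc4 led in SCM and Sdc3 led in DMEM. Sdc4 was 3.20 times as abundant as Sdc3 in SCM and 0.713 times as abundant in DMEM, in FPKM.

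**Figure D2:**
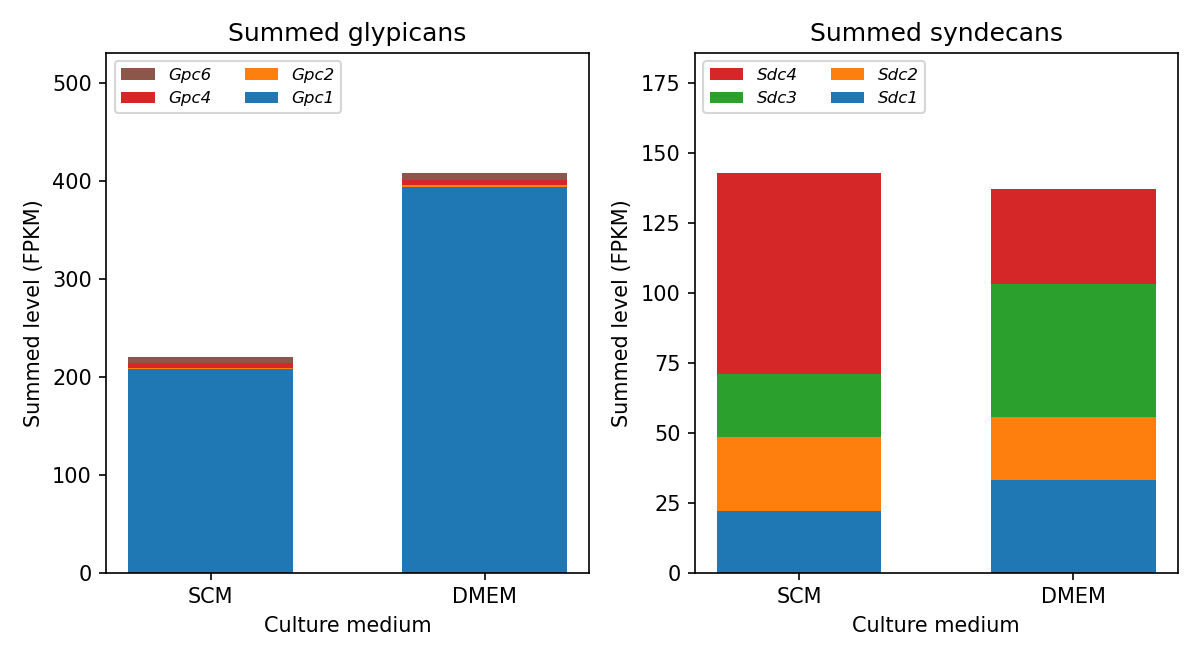
Summed FPKM of the glypicans (left) and of the syndecans (right), with SCM as the left bar and DMEM as the right bar of each panel, stacked by gene; genes with 0 reads are left out. Gpc1 fills nearly the whole glypican bar, and in the syndecan panel bars of 143 FPKM in SCM and 137 FPKM in DMEM are made up differently, with Sdc4 as 50.3% of the sum in SCM and 24.7% in DMEM.

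Sdc4 encodes syndecan-4, a component of focal adhesions that binds protein kinase C alpha. The gene (ENSMUSG00000017009; chr2:164424247-164443887, minus strand) had 71.8 FPKM (6706 reads) in SCM and 33.9 FPKM (2513 reads) in DMEM. It was 2.12-fold higher in SCM (2.02 to 2.22), with a log2 ratio of 1.06, just past the limit. No other row of the table overlaps Sdc4, and 0 of its 50-base words occur in other genes. By FPKM it ranked 448 of all rows in SCM and 1181 in DMEM.

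Sdc3 encodes syndecan-3, the neural syndecan, which is known to bind pleiotrophin and ligands of the GDNF family. The gene (ENSMUSG00000025743; chr4:130792537-130826319, plus strand) had 22.4 FPKM (4924 reads) in SCM and 47.6 FPKM (8290 reads) in DMEM. It was 2.12-fold lower in SCM (2.05 to 2.20), with a log2 ratio of -1.05, again just past the limit. With a pseudocount of 3 FPKM the log2 ratio was -0.99 and the call was lost. Exons of Gm26716 on the other strand overlap Sdc3. That row had 12 reads in SCM and 4 in DMEM, and 5.36% of the 50-base words of Sdc3 occur in it. Among all rows Sdc3 ranked 1920 by FPKM in SCM and 753 in DMEM.

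The other syndecans lay within 2-fold. Sdc1 (ENSMUSG00000020592; chr12:8771323-8793715, plus strand), a syndecan of epithelia and plasma cells, had 22.0 FPKM (3067 reads) in SCM and 32.9 FPKM (3649 reads) in DMEM. Its SCM level was 1.5-fold lower (1.43 to 1.57), with a log2 ratio of -0.56. Sdc2 (ENSMUSG00000022261; chr15:32920723-33034935, plus strand), a syndecan of mesenchymal cells, had 26.6 FPKM (3442 reads) in SCM and 22.7 FPKM (2332 reads) in DMEM, a ratio of 1.17 (1.11 to 1.23) and a log2 ratio of 0.22. Of their 50-base words, 0.782% for Sdc1 and 1.98% for Sdc2 also occur in other genes. Counting intervals excluded 1 for both genes, as they did for 65.5% of all rows compared, so an interval that excludes 1 is common at this depth.

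In SCM the order of levels was Sdc4, Sdc2, Sdc3 and Sdc1. Neighbours in this order stood 2.7-fold (2.59 to 2.81), 1.19-fold (1.14 to 1.24) and 1.02-fold (0.976 to 1.07) apart, so Sdc3 and Sdc1 did not differ beyond counting error. In DMEM the order was Sdc3, Sdc4, Sdc1 and Sdc2. Neighbours stood 1.40-fold (1.34 to 1.47), 1.03-fold (0.979 to 1.08) and 1.45-fold (1.38 to 1.53) apart, and Sdc4 and Sdc1 did not differ beyond counting error. By FPKM, Sdc2 was therefore the lowest syndecan in DMEM and the second in SCM, although its own level differed by less than the 2-fold limit. Levels of different genes also depend on the length taken for each, from 2547 bases for Sdc4 to 5989 for Sdc3. The counting intervals do not cover error in that length.

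The directions went with the pairs seen over the full length of the coding ends printed above, but not with likeness within the capitals. Sdc1 and Sdc3, the pair with more bases in common over that length, both had ratios below 1. Sdc2 and Sdc4 both had ratios above 1. Within the capitals Sdc1 and Sdc4 were the most alike, yet their FPKM ratios of SCM over DMEM were 0.667 and 2.12. Whole cytoplasmic tails were not compared. Sdc1 and Sdc3 together had 44.4 FPKM in SCM and 80.5 FPKM in DMEM, which was 31.1% of all syndecan FPKM in SCM and 58.7% in DMEM. Sdc2 and Sdc4 together had 98.4 FPKM in SCM and 56.7 FPKM in DMEM, which was 68.9% of the syndecan sum in SCM and 41.3% in DMEM. The grouping of 4 genes in 2 libraries was noticed after the values were seen and has no test.

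**Figure D3:**
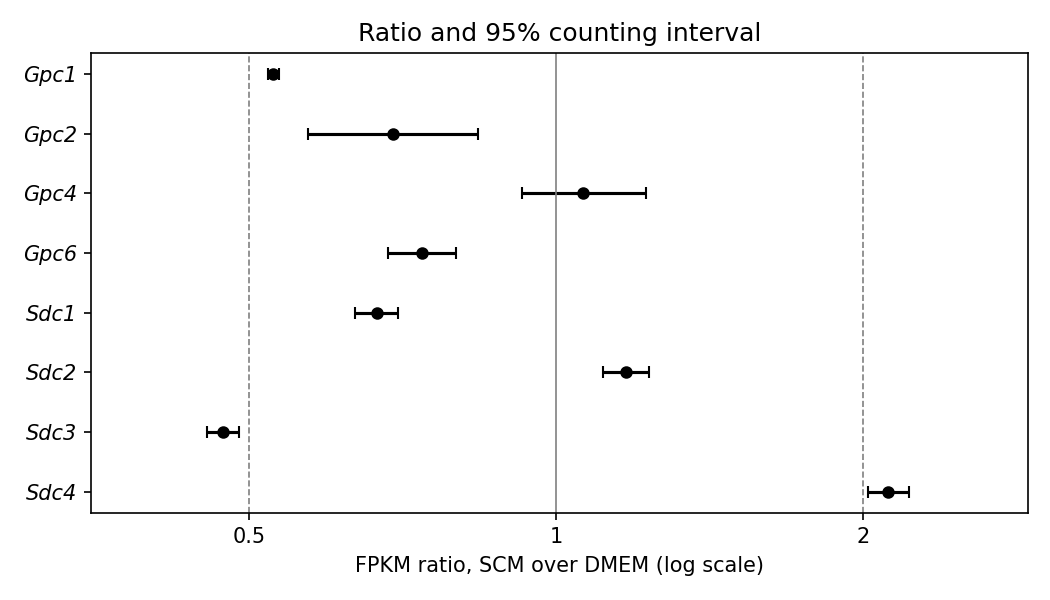
FPKM ratio of SCM over DMEM on a log axis for the 8 genes that reached 1 FPKM, with 95% counting intervals as bars; dashed lines mark 0.5 and 2. Sdc4 at 2.12 and Sdc3 at 0.471 lie outside the dashed lines, Gpc1 at 0.528 lies just inside, and the interval of Gpc4 holds 1.

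The promoters of the 2 syndecan genes that passed 2-fold are shown because those genes went opposite ways. Each window runs from 250 bases before to 50 after the RefSeq start site on GRCm38.p6, in the direction of the gene, at chr4:130792287-130792586 (plus strand) for Sdc3 and chr2:164443139-164443438 (minus strand) for Sdc4. Capitals mark GGGCGG, the GC box of Sp1-type factors, on either strand.
Sdc3: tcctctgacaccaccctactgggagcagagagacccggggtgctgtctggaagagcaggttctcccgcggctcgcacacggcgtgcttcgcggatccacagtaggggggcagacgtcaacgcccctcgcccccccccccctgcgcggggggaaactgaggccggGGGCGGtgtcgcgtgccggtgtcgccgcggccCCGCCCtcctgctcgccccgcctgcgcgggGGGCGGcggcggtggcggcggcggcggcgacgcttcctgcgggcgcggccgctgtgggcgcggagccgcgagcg
Sdc4: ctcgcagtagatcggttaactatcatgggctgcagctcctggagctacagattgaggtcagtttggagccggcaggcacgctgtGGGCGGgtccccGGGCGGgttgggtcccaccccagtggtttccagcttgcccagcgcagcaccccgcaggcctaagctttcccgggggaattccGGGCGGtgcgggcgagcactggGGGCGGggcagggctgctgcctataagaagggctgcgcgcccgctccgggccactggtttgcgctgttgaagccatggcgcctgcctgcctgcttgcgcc
Both windows are rich in G and C, at 77.7% in Sdc3 and 67.7% in Sdc4, against a median of 52.7% over 32851 RefSeq promoters of the same length. Sdc3 held 44 CG dinucleotides and Sdc4 22, against a median of 7. GGGCGG was found 3 times in Sdc3 and 4 times in Sdc4, and it occurs in 35.7% of all promoters. Neither window held TGANTCA (AP-1, in 7.81% of all promoters), TGATGNAA (the amino acid response element, 3.97%), GGAATG (TEAD, 14.7%) or ACAANG (Sox, 41.2%). These motifs were searched on both strands, and none of them contains another. The promoters of 7 of the 10 genes matched the table, and every one of these 7 held at least 1 GGGCGG.

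Of 37 genes that build heparan sulfate, in 4 lists, 25 were measured. Of these, 0 were higher and 0 lower at 2-fold, against 5.89% of all rows compared, so a count of 0 among 25 is near the background. The median log2 ratio was -0.04. Low genes are held down by the pseudocount: Pxylp1, a linkage region phosphatase gene, had 1.10 FPKM in SCM and 0.408 FPKM in DMEM, 2.69-fold higher (2.07 to 3.55), with a log2 ratio of 0.58. It passed 2-fold with a pseudocount of 0.1 FPKM. B3galt6, a linkage region galactosyltransferase gene, had 1.04 FPKM in SCM and 2.01 FPKM in DMEM, 1.94-fold lower (1.53 to 2.46), and did not. Among 7 enzymes of the linkage region, which joins the chain to the core protein, the median was -0.16. The xylosyltransferase gene Xylt1, which starts the chain, had 6.58 FPKM in SCM and 9.41 FPKM in DMEM, B3gat3 had 9.59 FPKM in SCM and 10.8 FPKM in DMEM, and the xylose kinase gene Fam20b had 7.89 FPKM in SCM and 8.77 FPKM in DMEM. Of 5 genes of the chain polymerase family, 4 were measured, with a median of -0.02. Extl3 had 27.6 FPKM in SCM and 28.3 FPKM in DMEM, Extl2 had 12.2 FPKM in each, and Ext2 had 7.28 FPKM in SCM and 6.24 FPKM in DMEM.

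Of 16 genes for enzymes that sulfate or epimerise the chain, 6 were measured, with a median of 0.00. The N-deacetylase and N-sulfotransferase gene Ndst1 had the highest log2 ratio among them, 0.60, at 24.6 FPKM in SCM and 15.8 FPKM in DMEM. The sulfotransferase genes Hs2st1, at 20.7 FPKM in SCM and 20.2 FPKM in DMEM, and Hs6st1, at 17.8 FPKM in SCM and 18.4 FPKM in DMEM, lay close to 0. Of 9 genes that supply sugar nucleotides and sulfate, 8 were measured, with a median of 0.01. Bpnt2, a Golgi phosphatase, had 125 FPKM in SCM and 99.9 FPKM in DMEM, the sulfate transporter gene Slc26a2 had 19.5 FPKM in SCM and 21.9 FPKM in DMEM, and Papss1, which makes the sulfate donor, had 16.2 FPKM in SCM and 16.7 FPKM in DMEM.

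Of 16 genes that edit the chains or release the core proteins, 9 were measured, 1 was higher at 2-fold and 0 were lower, with a median of 0.44. The higher gene was Gdpd2, which encodes GDE3, an enzyme known to cut the GPI anchor of the urokinase receptor. It had 29.2 FPKM in SCM and 3.66 FPKM in DMEM, 7.99-fold higher (7.28 to 8.79), and overlaps Gm14866 on the other strand, which had 201 reads in SCM and 57 in DMEM. The sheddase gene Adam10 had 219 FPKM in SCM and 205 FPKM in DMEM, and the membrane metalloprotease gene Mmp14 had 60.7 FPKM in SCM and 75.9 FPKM in DMEM. Sulf2, at 21.3 FPKM in SCM and 11.5 FPKM in DMEM, and Gdpd5, at 3.71 FPKM in SCM and 1.90 FPKM in DMEM, were short of the limit upwards. Of the 9 genes, 7 lay above 0 and 2 below. Notum, whose log2 ratio is the median, and Gpld1 passed the filter on low values through the SCM library alone. All 6 measured genes of lysosomal heparan sulfate breakdown, of 8, lay above 0 and within 2-fold, with a median of 0.19. Over all rows compared, 54.2% lay below 0. The counting intervals of Hgsnat and Gusb held 1. The sulfatase gene Ids had 47.3 FPKM in SCM and 30.1 FPKM in DMEM, and the acetyltransferase gene Hgsnat had 20.1 FPKM in SCM and 19.5 FPKM in DMEM.

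Of 14 genes for cytoplasmic partners of syndecans, 12 were measured, 0 passed 2-fold and the median was -0.01. Ezr, which encodes ezrin, a linker of membrane proteins to actin that binds syndecan-2, was just short of the limit, at 72.6 FPKM in SCM and 36.1 FPKM in DMEM and a log2 ratio of 0.99. The cortactin gene Cttn had 278 FPKM in SCM and 318 FPKM in DMEM, and Pdcd6ip, whose product ALIX binds syntenin, had 48.0 FPKM in SCM and 47.3 FPKM in DMEM.

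**Figure D4:**
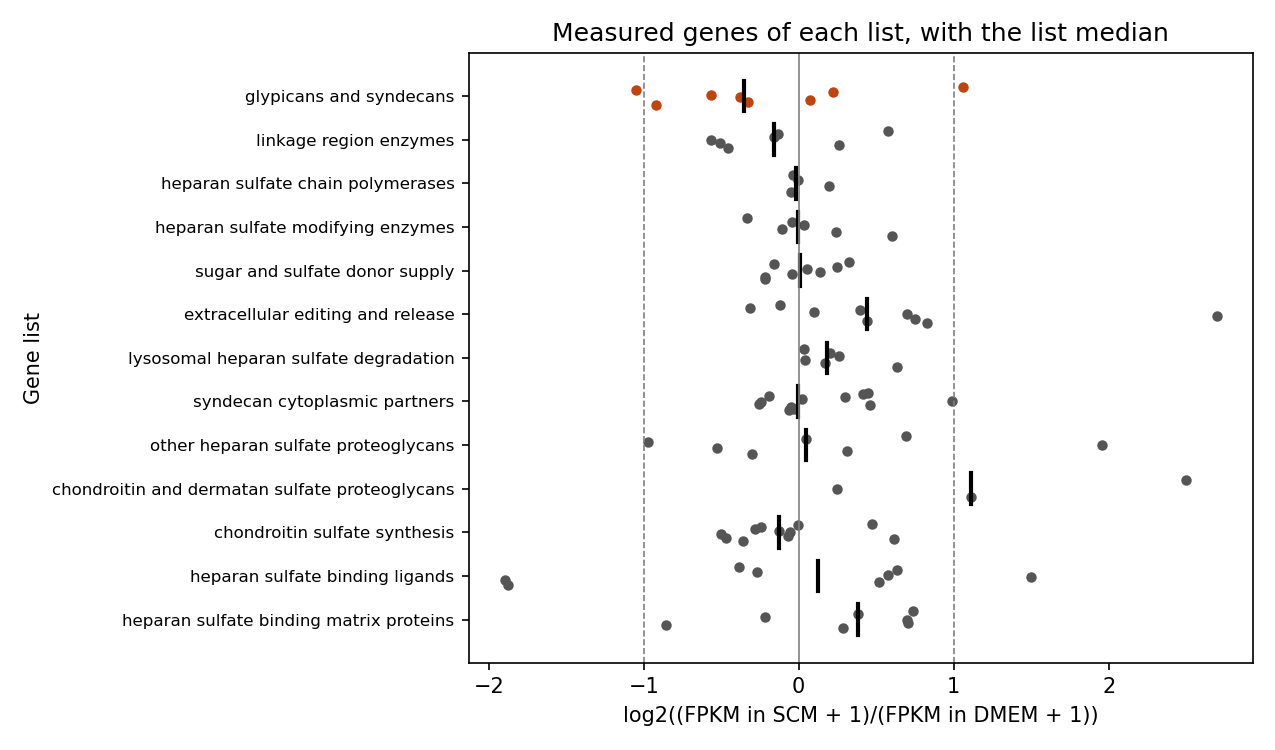
Log2((FPKM in SCM + 1)/(FPKM in DMEM + 1)) of the measured genes of each list, 1 point per gene, with a black bar at the list median and dashed lines at 2-fold; glypicans and syndecans are at the top in red. The 25 measured genes of the 4 lists of heparan sulfate making lie within the dashed lines, between -0.56 and 0.60.

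Other proteoglycans were mixed. Of 10 genes that can carry heparan sulfate, 7 were measured, of which 1 passed 2-fold upwards and 0 downwards. Their median was 0.05. Nrp1 was just short of the limit downwards, at 26.9 FPKM in SCM and 53.8 FPKM in DMEM and a log2 ratio of -0.97. Tgfbr3, the gene of the TGF-beta co-receptor betaglycan, had 20.5 FPKM in SCM and 4.53 FPKM in DMEM, 4.51-fold higher (4.20 to 4.86). Col18a1, a basement membrane collagen, had 145 FPKM in SCM and 209 FPKM in DMEM, and Cd44 had 75.0 FPKM in SCM and 72.4 FPKM in DMEM. Of 9 chondroitin and dermatan sulfate proteoglycans, 3 were measured and 2 of them passed 2-fold upwards, against 3.1% of all rows compared. Ptprz1, a receptor phosphatase that binds pleiotrophin, had 6.57 FPKM in SCM and 0.338 FPKM in DMEM, and Cspg4, the NG2 proteoglycan, had 1.84 FPKM in SCM and 0.314 FPKM in DMEM. Both passed the filter on low values through the SCM library alone, so the count of 2 among 3 follows in part from the filter. Ncan and Bcan, brain proteoglycan genes under 1 FPKM in both libraries and so not compared, had lower values in SCM. Ncan had 0.0682 FPKM in SCM and 0.377 FPKM in DMEM, and Bcan had 0.0805 FPKM in SCM and 0.415 FPKM in DMEM. Bgn, also under 1 FPKM in both, went the other way, at 0.340 FPKM (76 reads) in SCM and 0.0282 FPKM (5 reads) in DMEM. Vcan, the gene of versican, had 1.79 FPKM in SCM and 1.36 FPKM in DMEM. At 208 FPKM in SCM and 395 FPKM in DMEM, Gpc1 was above every gene of these 2 proteoglycan lists in both libraries. Of 16 genes of chondroitin sulfate synthesis, 11 were measured, 0 passed 2-fold and the median was -0.13. Dsel had 17.8 FPKM in SCM and 17.9 FPKM in DMEM, Chsy1 had 9.35 FPKM in SCM and 12.3 FPKM in DMEM, and Chst3 had 8.25 FPKM in SCM and 12.1 FPKM in DMEM.

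Of 28 genes for ligands that bind heparan sulfate, 8 were measured, of which 1 passed 2-fold upwards and 2 downwards; their median was 0.13. Of the known syndecan-3 ligands, the neurotrophic factor gene Gdnf had 11.0 FPKM in SCM and 43.8 FPKM in DMEM, lower in SCM as Sdc3 was. The pleiotrophin gene Ptn was above 0, at 97.5 FPKM in SCM and 65.0 FPKM in DMEM and a log2 ratio of 0.58, short of the 2-fold limit. Fgf5 had 8.35 FPKM in SCM and 33.3 FPKM in DMEM, and the Hedgehog ligand gene Dhh had 23.0 FPKM in SCM and 7.49 FPKM in DMEM. Of 10 matrix proteins that bind heparan sulfate, 7 were measured, 0 passed 2-fold and the median was 0.38. Tnc, the gene of tenascin-C, had 174 FPKM in SCM and 316 FPKM in DMEM. The type V collagen genes Col5a2, at 83.8 FPKM in SCM and 64.0 FPKM in DMEM, and Col5a1, at 31.1 FPKM in SCM and 36.2 FPKM in DMEM, lay within 2-fold, as did Col5a3, at 10.9 FPKM in SCM and 6.17 FPKM in DMEM, which had the highest log2 ratio of the list, 0.74. Over all 12 lists, 88 of 148 genes were measured, 5 were higher and 2 lower at 2-fold, and the median was 0.04, against 3.1% of all rows compared higher, 2.8% lower and a median of -0.03. Counts this small are near the background.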

How the data were processed

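Total RNA of 2 cultures was made into stranded total RNA libraries. The authors deposited FPKM values for 55323 rows; no other sample columns were present (0). Per the submitters' processing notes, the tools were STAR 2.7.9a, featureCounts 2.0.1, cutadapt 3.1, Trimmomatic 0.39 and Trim Galore, with builds mm10 and GRCm38.p6. What each did, and whether strand was used in counting, is not stated there. Of the 10 genes, 0 had the positions of GENCODE M21 (GRCm38) in the table, and 9 had the same span elsewhere. Positions and sequences printed are therefore those of the reference annotation, and none are the table's.

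The products of FPKM and length (kb) added up to 1000000 for each library, and 100% of values were within 0.01 of whole reads, which gave the read numbers. Log2 ratios add 1 FPKM to each value, which understates low genes, and cover rows that reached 1 FPKM in either library; fold values are plain FPKM ratios with 95% exact intervals. No count model was run, as each medium had 1 library. The genes, the 12 lists and the call rule were chosen with earlier results of these data known. Text names all 10 genes and, from each list, every gene past 2-fold and the most abundant ones up to 3; no genes of like pattern are named, since 2 libraries give 1 ratio per gene. Ptn, Pxylp1, B3galt6, Ncan, Bcan, Col5a3, Gusb and Nrp1 were named after their values were seen. So were Sulf2, Gdpd5, Notum, Gpld1 and Bgn. Some genes of the lists are not reported here by name, though counts and medians include them. Of the 36 list genes taken by this rule, 9 share exon positions with another row. Of 10 housekeeping genes checked, 0 were at 0. Python 3.11.15, pandas 2.3.3, scipy 1.17.1 and matplotlib 3.10.9 were used. Alternatives changed the pseudocount, filter, scaling, unit, fold limit and rows.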

Additional observations from a re-analysis of the deposited data

How the results depend on the processing

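Sdc4 was the 1 member called higher under every alternative run except a 3-fold limit, which called 0. Sdc3 was the 1 member called lower, except with a pseudocount of 3 FPKM or a 3-fold limit, which called 0, and a 1.5-fold limit, which called 2 (Gpc1 and Sdc3). Of 62 alternative log2 ratios of single members, 56 stayed within counting error of the main value and 6 moved beyond it. The 2 filter settings leave a ratio as it is. No setting could have changed the sign of a called gene, since the scalings shifted SCM little and a pseudocount keeps the sign. Sdc3 ran from -1.14 to -0.99, Sdc4 from 1.01 to 1.10 and Gpc1 from -0.98 to -0.88. The log2 ratio of summed glypicans, -0.89 in FPKM, was -0.96 in TPM and -0.25 without Gpc1. That of summed syndecans, 0.06 in FPKM, was -0.00486 in TPM, 0.43 without Sdc3 and -0.54 without Sdc4, so the near balance of the sum rests on both genes.

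All rows called higher and lower, 382 and 345, became 681 and 625 with a pseudocount of 0.1 FPKM, 148 and 131 with 3 FPKM, 210 and 165 from 5 FPKM, 1011 and 1145 in TPM, where the same filter and pseudocount of 1 fall lower on the scale, 974 and 928 at 1.5-fold, 91 and 87 at 3-fold, and 250 and 145 for protein-coding rows. List genes called higher, 5, became 10 with a pseudocount of 0.1 FPKM and 9 in TPM; those called lower, 2, became 7 in TPM. The other settings stayed within 1.5 times. No paired analysis was possible because each medium had 1 library. A count of 0 allowed up to 0.0184 FPKM in SCM for Gpc5. Differences between cultures of one medium were not measured, so all ratios describe these 2 libraries.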
